A study of Rattus norvegicus with 43 samples.

Results

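The distal colon of rats fed butyrylated high-amylose maize starch (HAMSB, n = 9) was compared with that of rats fed high-amylose wheat (HAW, n = 8). The arrays were chosen by their diet label, and these 17 of the 43 arrays in the series carried either label. All animals were Sprague Dawley rats of 11 weeks, and 100 ng of total RNA from each distal colon was labelled for an Affymetrix array. The other 26 arrays came from 5 control rats (CON), 7 rats on maize starch low in amylose (LAMS), 8 on unesterified maize starch high in amylose (HAMS) and 6 on low-amylose wheat (LAW). The labels give the diets only as codes, and they are read here from knowledge of the study. The series is titled for rats on a Western diet, and which of the 6 diets had that base is not given in the sources used here. The HAMSB and HAW diets differ in the grain and in the butyrate ester at the same time, so that grain and ester cannot be told apart in the difference between them.

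High-amylose starch escapes digestion in the small intestine and is fermented by bacteria in the large bowel to short-chain fatty acids. Butyrate, one of these acids, is a main fuel of colonocytes and an inhibitor of histone deacetylases. In butyrylated starch, butyrate is bound to the starch by ester bonds that bacterial enzymes split, which delivers it to the colon, whereas a high-amylose wheat brings its resistant starch together with the fibre and protein of the grain.

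Expression is given as log2 values made by the authors with RMA, so that a difference of 1 is a doubling. One probe set stood for each gene, and 10934 genes were tested with limma in a fit that gave each of the 6 diets its own mean. Differences are HAMSB minus HAW ± their standard error, and a gene is said to have risen or fallen in HAMSB where the Benjamini-Hochberg adjusted p-value over all tested genes was below 0.05. Values of single arrays are given as the lowest, median and highest of each diet. Markers of the labelled tissue, chosen after their values were seen, were at high levels in both diets. Epcam, an adhesion molecule of epithelia, averaged 11.24 in HAMSB and 11.16 in HAW, and Krt20, a keratin of mature colonocytes, averaged 10.85 and 10.65. The tissue holds several cell types, so fewer cells of a type and less RNA per cell cannot be told apart.

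Between the diets 1009 genes differed, 9.23% of those tested, with 428 higher in HAMSB (3.91%) and 581 lower (5.31%). The median size of these differences was 0.42, 278 of them exceeded 0.5 and 13 exceeded 1. The 95% intervals extended 0.23 on each side of the difference in the median gene. The array file names in the labels come in 3 styles, and HAMSB holds 5 arrays of style 1 and 4 of style 2, whereas HAW holds 3 of style 1 and 5 of style 3. With style as a block in the model 214 genes passed (1.96%), 110 higher (1.01%) and 104 lower (0.951%), 146 of which were among the 1009, and all 1009 kept their sign. In the 8 arrays of style 1 alone 332 genes passed (3.04%), and 83 genes passed in all 3 fits, 44 of them higher in HAMSB and 39 lower. What the styles stand for is not given. With diet already in the model, 4666 of the 10934 tested genes followed style. How much of the HAMSB minus HAW differences came from style was not tested beyond these fits. The count over all arrays moved by more than 1.5 times when single arrays were left out: it was 545, 407, 578, 644, 357 and 1541 without HAMSB replicates 1, 2, 3, 4, 5 and 9, and 429, 498, 428, 414 and 1754 without HAW replicates 1, 2, 3, 5 and 8. The interquartile range of the log2 values on an array was 2.07 ± 0.069 (SD, n = 9) in HAMSB and 2.13 ± 0.138 (SD, n = 8) in HAW, and did not pass an exact two-sided permutation test (p = 0.2985). HAW replicate 8 had the narrowest range of the 17 arrays (1.82), and without it the same exact permutation test gave p = 0.0097. This array was singled out after its range was seen, and leaving out the lowest HAW value widens the difference. No conclusion is therefore drawn from that p-value. Without any other single array the same exact permutation test gave p from 0.2255 to 0.4943. In the style 1 arrays alone the HAMSB minus HAW difference in range was 0.0507, against -0.0570 over all arrays. With the style block and without HAW replicate 8, 146 genes passed, 27 higher and 119 lower.

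The 2 genes of smallest p among those named were Slc6a14 and Guca2b, both expressed by the epithelium. Slc6a14, a sodium- and chloride-dependent transporter of neutral and basic amino acids, measured 6.68, 7.62 and 8.40 in HAMSB (lowest, median, highest) against 8.27, 9.08 and 9.74 in HAW. Every HAMSB array but 1 lay below all HAW arrays. Slc6a14 fell by 1.57 ± 0.25, a level 2.96-fold higher in HAW (adjusted p = 0.00128, limma). It also fell with the style block (difference -1.33, adjusted p = 0.00288) and in the style 1 arrays (-1.71, adjusted p = 0.00858), and it kept its call in all 17 fits that left out 1 array.

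Guca2b encodes uroguanylin, a peptide hormone that binds the receptor guanylate cyclase C on enterocytes and drives the secretion of chloride and water. Its values were 8.76, 9.19 and 9.72 in HAMSB and 7.49, 7.92 and 8.71 in HAW, so that the 9 HAMSB arrays all lay above the 8 HAW arrays. Guca2b rose by 1.19 ± 0.20, or 2.28-fold (adjusted p = 0.00139), and passed with the style block (1.10, adjusted p = 0.0141) and in style 1 alone (1.00, adjusted p = 0.026). Only 20 genes of 10934 (0.183%) separated the 2 diets without overlap, 17 of them with all HAMSB arrays above (0.155%) and 3 below (0.0274%). Guca2a, the related hormone guanylin, measured 11.11, 11.63 and 11.78 in HAMSB and 10.57, 10.77 and 11.37 in HAW. It rose by 0.57 ± 0.17 (adjusted p = 0.0349), but its difference was 0.32 with the style block (adjusted p = 0.394), and the call was lost in 7 of the 17 fits without 1 array. Slc12a2, the sodium-potassium-chloride cotransporter that loads secretory cells with chloride, fell by 0.53 ± 0.17 (adjusted p = 0.0374, 0.318 with the style block), a call lost in 10 of the 17 fits without 1 array. These were the 3 of 30 tested genes of ion and water transport and of the guanylin axis that passed, a share near the 9.23% of all genes. The list's median difference was 0.04 beside 0.02 over all genes.

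**Figure D1:**
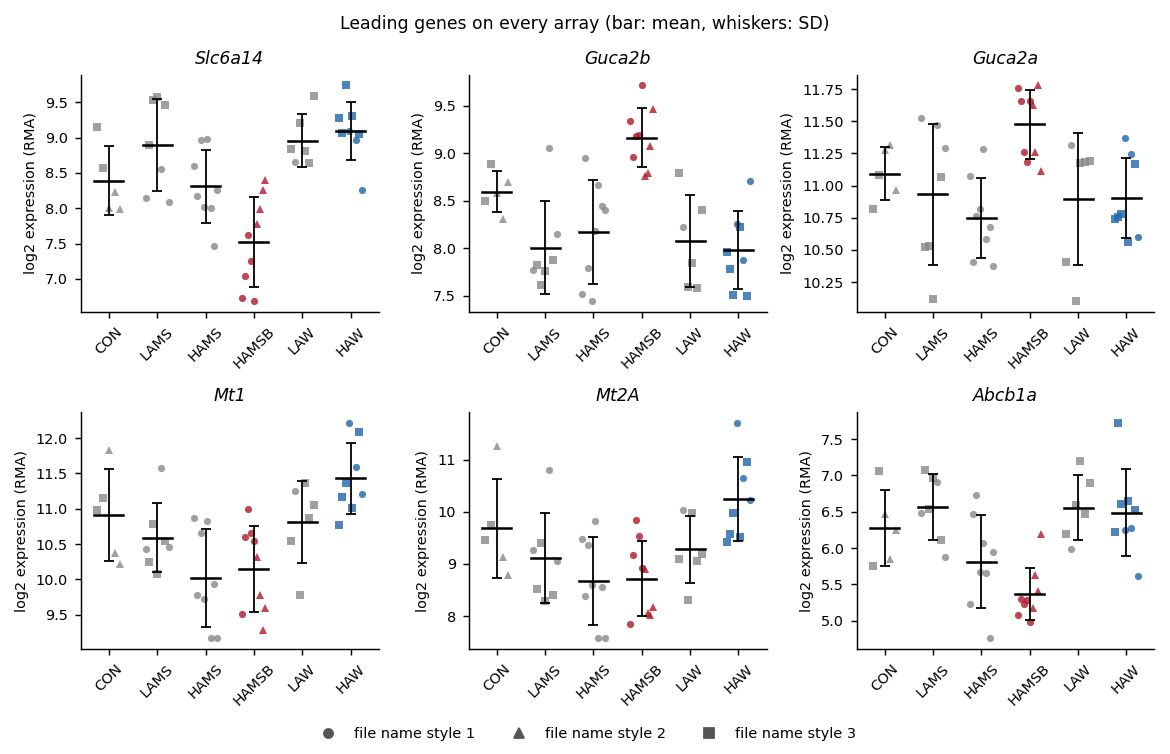
Log2 expression of Slc6a14, Guca2b, Guca2a, Mt1, Mt2A and Abcb1a on each of the 43 arrays by diet, with HAMSB in red and HAW in blue; marker shapes give the style of the array file name, bars the diet mean and whiskers the SD. All 9 HAMSB arrays lie above all 8 HAW arrays for Guca2b, and the HAW means of Mt1 (11.43) and Mt2A (10.25) are the highest of the 6 diets.

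Among amino acid and peptide transporters 4 of 19 tested genes fell and none rose, beside 5.31% of all genes that fell, with a median of -0.10. Besides Slc6a14 these were Slc15a1, which takes up di- and tripeptides with protons (difference -0.76 ± 0.23, adjusted p = 0.0337), Slc38a2, a glutamine and neutral amino acid carrier (-0.51 ± 0.13, adjusted p = 0.0147), and its relative Slc38a1 (-0.31 ± 0.10, adjusted p = 0.0454). With the style block Slc6a14 alone of these passed, and 2 of the 19 fell without any one of HAMSB replicates 1, 2 and 5 or HAW replicates 1, 2, 3 and 5. Of all genes 218 to 340 fell in these fits without 1 array. Odc1 and Amd1, both rate-limiting enzymes of polyamine synthesis, fell. Odc1, which makes putrescine from ornithine, measured 8.36, 8.83 and 9.33 in HAMSB and 9.07, 9.38 and 9.86 in HAW, and fell by 0.55 ± 0.13 (adjusted p = 0.0121, 0.0326 with the style block). Amd1, which supplies the aminopropyl groups, fell by 0.75 ± 0.17 (adjusted p = 0.00856, 0.0573 with the style block). They were the 2 genes that passed among the 24 tested for the handling of sulphide, ammonia and amino acids, a share near the 9.23% of all genes.

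The metallothioneins Mt1 and Mt2A, small cysteine-rich proteins that bind zinc, copper and cadmium, were lower in HAMSB than in HAW. Their transcription is known to be switched on by zinc through metal response elements near the start site. The promoters of both genes are shown because they share this element and the genes fell together. They were taken from RefSeq in the rat build GRCr8, from 250 bases before to 50 after the annotated start, written 5′ to 3′ in the direction of the gene. Capitals mark matches to the element's core, TGCGCNC or TGCACNC, on either strand. The Mt1 window lies at chr19:10832926-10833225 and the Mt2A window at chr19:10838659-10838958, both on the minus strand.
Mt1: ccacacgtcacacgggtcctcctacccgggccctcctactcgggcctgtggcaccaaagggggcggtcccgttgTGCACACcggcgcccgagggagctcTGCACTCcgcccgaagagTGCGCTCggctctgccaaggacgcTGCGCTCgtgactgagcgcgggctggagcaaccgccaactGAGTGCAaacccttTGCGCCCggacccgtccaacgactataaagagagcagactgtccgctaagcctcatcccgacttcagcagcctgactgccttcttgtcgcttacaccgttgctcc
Mt2A: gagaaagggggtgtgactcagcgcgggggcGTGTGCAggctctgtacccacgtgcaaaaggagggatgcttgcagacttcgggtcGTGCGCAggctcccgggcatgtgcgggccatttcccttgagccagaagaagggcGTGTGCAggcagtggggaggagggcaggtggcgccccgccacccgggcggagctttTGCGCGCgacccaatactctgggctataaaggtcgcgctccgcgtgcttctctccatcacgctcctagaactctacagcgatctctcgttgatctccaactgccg
The Mt1 window held 6 matches and the Mt2A window 4, none of them overlapping another. Of 33469 RefSeq promoters of this length 24.2% held at least 1 match and 1.68% held 3 or more. A match of letters is a description of the sequence and not a binding site shown in these animals.

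Mt1 measured 9.29, 10.32 and 11.00 in HAMSB and 10.77, 11.29 and 12.22 in HAW. Mt2A measured 7.85, 8.89 and 9.84 in HAMSB and 9.42, 10.10 and 11.72 in HAW. For both genes the diets overlapped only at the upper end of HAMSB and the lower end of HAW. Mt1 fell by 1.28 ± 0.27, 2.43-fold higher in HAW (adjusted p = 0.0069), and Mt2A fell by 1.54 ± 0.37, 2.91-fold higher in HAW (adjusted p = 0.0121). Both passed with the style block (Mt1 -1.24, adjusted p = 0.0278; Mt2A -1.80, adjusted p = 0.0182), in the style 1 arrays (adjusted p = 0.0483 and 0.0393) and in all 17 fits without 1 array. A second probe set of each gave -1.31 and -1.63. HAW had the highest mean of the 6 diets for both genes, and HAMSB the next to lowest. Against LAMS, whose arrays are in neither diet, Mt2A differed by 1.15 in HAW and by -0.39 in HAMSB, and neither passed (adjusted p = 1 and 0.528). Slc30a1, a zinc exporter also known to respond to zinc and chosen after its values were seen, fell by 0.36 ± 0.12 (adjusted p = 0.0461, 0.193 with the style block). Its promoter window held 2 matches, beside 24.2% of all promoters with at least 1. Promoters were looked up only for genes that passed, and whether zinc played a part in these differences was not tested. Mt3, a metallothionein best known from brain and also chosen after its values were seen, differed by 0.24 ± 0.14 and did not pass (adjusted p = 0.272).

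Abcb1a, the P-glycoprotein pump that exports foreign compounds from epithelial cells, measured 4.99, 5.28 and 6.19 in HAMSB and 5.61, 6.40 and 7.73 in HAW. It fell by 1.12 ± 0.24, a level 2.17-fold higher in HAW (adjusted p = 0.0069), also with the style block (-0.96, adjusted p = 0.0472) and in style 1 (-0.87, adjusted p = 0.02). HAMSB had the lowest mean of the 6 diets (5.37 ± 0.36 SD, n = 9), whereas HAW (6.48 ± 0.60 SD, n = 8) lay between CON at 6.28 and LAMS and LAW, both at 6.56. Aldh1a1, an enzyme that oxidises retinaldehyde to retinoic acid, fell by 0.98 ± 0.28 (adjusted p = 0.0283, 0.176 with the style block), and Cyp2d5, a drug-metabolising cytochrome P450, rose by 0.52 ± 0.15 (adjusted p = 0.026, 0.0976 with the style block). The other 19 of 22 tested genes of xenobiotic metabolism and efflux did not pass, beside 9.23% of all genes that did.

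The 2 largest rises were those of the resistin-like molecules, which are secreted proteins. Retnlb, made by goblet cells of the colon and known to respond to the gut flora, measured 7.78, 9.08 and 11.08 in HAMSB and 5.31, 7.04 and 9.45 in HAW, and rose by 1.99 ± 0.58 (adjusted p = 0.029). Retnla measured 6.93, 7.85 and 9.99 in HAMSB and 4.90, 6.51 and 9.08 in HAW, and rose by 1.77 ± 0.57 (adjusted p = 0.043). Both diets spanned more than 3 units for each gene, and their arrays overlapped widely. Neither gene passed with the style block (differences 1.08 and 1.07, adjusted p = 0.421 and 0.437), and the calls were lost in 4 and 13 of the 17 fits without 1 array. The probe sets of these related genes may share transcripts, so they may not be independent. In the other diets Retnlb ran from 6.54 to 10.20 in CON and from 7.49 to 10.45 in LAW. It ran from 6.02 to 8.83 in LAMS and from 4.52 to 8.34 in HAMS. No other gene of 18 tested for goblet cells passed, and of 15 genes of mucosal innate defence Retnlb alone passed. Both shares are near those of all genes, of which 9.23% passed and 3.91% rose. Mptx1, a secreted pentraxin of the mucosa, differed by 1.02 ± 0.39 (adjusted p = 0.0869) and Itln1, a lectin of goblet cells, by 0.76 ± 0.31 (adjusted p = 0.105).

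Histone genes rose in part. Of 9 tested histones 4 rose and none fell, beside 3.91% of all genes that rose, and the list's median was 0.30. H4c14, a histone H4 gene, measured 7.97, 8.95 and 9.35 in HAMSB and 7.14, 7.45 and 8.23 in HAW, and rose by 1.15 ± 0.23 (adjusted p = 0.00521). Only 1 HAMSB array lay below the highest HAW array. H2bc12 (0.70 ± 0.21, adjusted p = 0.0356), H2ac4 (0.65 ± 0.19, adjusted p = 0.0292) and the variant H2ax, which is phosphorylated at DNA breaks (0.38 ± 0.12, adjusted p = 0.0412), were the others. Hist1h2af, a histone H2A gene outside the list, measured 7.44, 8.00 and 8.46 in HAMSB and 6.25, 6.97 and 7.40 in HAW and did not overlap. It rose by 0.96 ± 0.17 (adjusted p = 0.00288). With the style block H4c14 (0.85, adjusted p = 0.0383) and Hist1h2af (0.83, adjusted p = 0.0248) passed and the other 3 did not, with adjusted p from 0.0844 to 0.34. Histone genes of one family are alike in sequence, so probe sets may read each other's transcripts. Of 27 tested genes of the cell cycle and DNA replication 2 rose, near the share of all genes, the transcription factor E2f1 (0.48 ± 0.12, adjusted p = 0.0153) and the mitotic protein Birc5 (0.35 ± 0.11, adjusted p = 0.036), neither of which passed with the style block (adjusted p = 0.153 and 0.166). Without HAMSB replicates 1, 2 or 5 or HAW replicates 1, 3 or 5, 1 of the 9 histones rose, and without HAMSB replicates 3 or 4 or HAW replicate 2, 2 did. Of all genes 139 to 205 rose in the former fits and 213 to 269 in the latter. Of 19 histone deacetylases and acetyltransferases 1 rose and none fell, beside 3.91% and 5.31% of all genes. None passed with the style block or in 13 of the 17 fits without 1 array, those that left out HAMSB replicates 1, 2, 3, 5, 6 or 7 or HAW replicates 1, 2, 3, 5, 6, 7 or 8, and 2 rose without HAMSB replicate 8.

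Micos10, a subunit of the complex that shapes the cristae, measured 9.33, 9.43 and 10.06 in HAMSB and 8.23, 8.79 and 9.19 in HAW, with no overlap. It rose by 0.82 ± 0.14 (adjusted p = 0.00139), also with the style block (0.88, adjusted p = 0.00609) and in style 1 (1.21, adjusted p = 0.0106). Of 35 tested genes of oxidative phosphorylation 8 rose, none fell and 27 did not pass, beside 3.91% of all genes that rose, and the median was 0.35 beside 0.02 over all genes. The 8 spanned complexes I, III and IV, cytochrome c and the ATP synthase: Ndufa8, Ndufv2, Uqcrb, Cox7b, Cox7a2, Cycs, Atp5pd and Atp5mk, with differences from 0.40 for Ndufa8 to 0.77 for Cox7b. Ndufv2, Cox7a2, Cycs and Atp5mk were chosen after their values were seen. Cmc1, an assembly factor of cytochrome oxidase, rose by 0.81 ± 0.24 (adjusted p = 0.0314, 0.0844 with the style block). With the block 2 of the 35 passed, Uqcrb of complex III (0.75, adjusted p = 0.0327) and Atp5mk of the ATP synthase (1.09, adjusted p = 0.0236), and the list's median was 0.10. The count over all arrays was 2 to 5 without any one of HAMSB replicates 1 to 5 or HAW replicates 1, 2, 3, 5, 7 and 8, and 9 to 11 without any other. Of all genes 139 to 312 rose in the former fits, or 558 without HAW replicate 8, and 419 to 767 in the latter. With the block and without HAW replicate 8 none of the 35 passed, in a fit where only 27 of all 10934 genes rose and 119 fell. In the style 1 arrays 5 rose and none fell, with a median of 0.26, beside 246 and 86 of all genes. With the block and the lymphoid level 7 rose and 1 fell, beside 355 and 271 of all genes.

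Of 38 tested ribosomal proteins, which build the translating ribosome, 4 rose and none fell, beside 3.91% of all genes that rose. The list's median was 0.20 over all arrays, 0.02 with the style block, where 2 rose, and 0.03 in the style 1 arrays, where 2 rose and 1 fell. With the block and the lymphoid level 3 rose and 3 fell. The 4 genes were Rpl38 (0.59 ± 0.15, adjusted p = 0.0153), Rpl32 (0.43 ± 0.12, adjusted p = 0.0232), Rpl23 (0.34 ± 0.09, adjusted p = 0.0179) and Rps7 (0.25 ± 0.07, adjusted p = 0.0214). Rpl32 ran from 11.53 to 11.90 in HAMSB and from 10.95 to 11.51 in HAW and did not overlap, but its difference was 0.16 with the style block (adjusted p = 0.462). Rpl38 differed by 0.90 with the block (adjusted p = 0.00175), and its 3 other probe sets gave 0.59 to 0.65. The count was 2 of 38 without HAMSB replicate 2 or HAW replicate 2, 6 to 9 without HAMSB replicates 6 or 8 or HAW replicates 4, 6 or 8, and 4 or 5 without any other array. Of all genes 157 and 213, 429 to 562, and 139 to 767 rose in these fits. Of 28 tested genes of glutathione and antioxidant defence 3 rose and 1 fell, beside 3.91% and 5.31% of all genes. Those that rose were the peroxidases Gpx4 (0.53 ± 0.14) and Gpx1 (0.35 ± 0.10) and the superoxide dismutase Sod1 (0.49 ± 0.15), and the one that fell was Gclc, the catalytic subunit of the first enzyme of glutathione synthesis (-0.63 ± 0.18). The adjusted p of the 4 ran from 0.0208 to 0.0323. None of these passed with the style block, and 1 of the 28 rose without any one of HAMSB replicates 1, 2 and 5 or HAW replicates 1, 2, 3 and 5. Of all genes 139 to 213 rose in these fits without 1 array.

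Heat shock proteins, the chaperones that fold and protect other proteins, fell more often than they rose in HAMSB. Of 17 tested 5 fell and 1 rose, beside 5.31% and 3.91% of all genes, with a median of -0.17. The promoter of Hspa8, the constitutive cytosolic Hsp70 and the leading gene of this group, is shown for its heat shock element, the site known to bind heat shock factor. It lies at chr8:50080264-50080563 in GRCr8 on the plus strand and covers the same window around the start as above. Capitals mark the core GAANNTTC, which reads the same on both strands.
Hspa8: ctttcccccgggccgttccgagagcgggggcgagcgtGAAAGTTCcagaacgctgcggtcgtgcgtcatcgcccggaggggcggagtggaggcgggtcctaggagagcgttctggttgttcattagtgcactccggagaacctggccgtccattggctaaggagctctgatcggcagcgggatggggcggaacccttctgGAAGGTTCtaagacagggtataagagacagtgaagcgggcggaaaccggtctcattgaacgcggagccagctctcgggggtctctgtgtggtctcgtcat
The window held 2 matches, and 8.59% of the 33469 promoters held at least 1. Of the 6 heat shock genes that passed, the windows of 4 held a match, among them Hspe1, which rose, and those of Hsp90ab1 and Cct2, which fell, held none.

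Hspa8 measured 11.73, 12.40 and 12.68 in HAMSB and 12.62, 12.87 and 13.05 in HAW, so that the diets met only at their edges. It fell by 0.53 ± 0.10 (adjusted p = 0.00288), also with the style block (-0.60, adjusted p = 0.00175) and in style 1 (-0.71, adjusted p = 0.0354), and its 7 other probe sets gave -0.62 to -0.49. These probe sets may read near-identical copies of the gene. Hsp90ab1, the constitutive cytosolic Hsp90, ran from 11.44 to 11.94 in HAMSB and from 11.83 to 12.25 in HAW, and fell by 0.41 ± 0.08 (adjusted p = 0.00521, 0.0346 with the block). Cct2, a subunit of the chaperonin that folds actin and tubulin, fell by 0.27 ± 0.08 (adjusted p = 0.0333, 0.0236 with the block). The exchange factor Hsph1 (-0.55 ± 0.16, adjusted p = 0.0323) and the mitochondrial Hspa9 (-0.35 ± 0.11, adjusted p = 0.0469) fell but did not pass with the block. The gene that rose was Hspe1, the mitochondrial co-chaperonin (0.57 ± 0.15, adjusted p = 0.0195, 0.303 with the block). In the endoplasmic reticulum 2 of 24 tested folding genes fell, beside 5.31% of all genes, the Hsp90 paralog Hsp90b1 (-0.53 ± 0.14, adjusted p = 0.0153) and Sel1l of the degradation pathway (-0.41 ± 0.10, adjusted p = 0.0141), and none rose. Neither passed with the block, and the count was 7 without HAMSB replicate 6, 5 without HAW replicate 8 and 4 without HAW replicate 6. Of all genes 615, 1196 and 668 fell in these fits. Cct2 and Hspa9 were chosen after their values were seen. Without any one of HAMSB replicates 1, 2, 3 and 5 or HAW replicates 1, 2, 3 and 5, 2 or 3 of the 17 heat shock genes fell. Of all genes 218 to 343 fell in these fits.

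Of 30 tested splicing factors 6 fell and none rose, beside 5.31% of all genes that fell, with a median of -0.11 that was -0.05 with the style block. They were the RNA-binding proteins Hnrnpk, Hnrnpu, Hnrnpc and Rbm39, the helicase Ddx5 and Sf3b1 of the U2 particle, with differences from -0.28 for Hnrnpu to -0.51 for Rbm39. Hnrnpk (-0.36 ± 0.09, adjusted p = 0.0163) was the one that passed with the block (-0.27, adjusted p = 0.0378). Hnrnpc and Sf3b1 were chosen after their values were seen. The count was 1 to 3 without any one of HAMSB replicates 1 to 5 or HAW replicates 1, 2, 3, 5 and 7, and 5 to 7 without any other. Of all genes 218 to 407 fell in the former fits and 546 to 1196 in the latter. A second probe set of Rbm39 of low signal gave 0.57 and did not pass.

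In base excision and single-strand break repair 4 of 22 tested genes fell and 1 rose, beside 5.31% and 3.91% of all genes, with a median of -0.00. Tdg, which removes thymine and formylated or carboxylated cytosine from DNA, measured 6.87, 7.35 and 7.54 in HAMSB and 7.39, 7.81 and 8.17 in HAW, and fell by 0.53 ± 0.11 (adjusted p = 0.00521, 0.0346 with the style block). Ung, which removes uracil, went the other way, with 7.29, 7.72 and 8.21 in HAMSB and 6.97, 7.41 and 7.74 in HAW. It rose by 0.39 ± 0.10 (adjusted p = 0.0187), also with the block (0.51, adjusted p = 0.0236). Parg, which degrades poly(ADP-ribose) (-0.43 ± 0.11, adjusted p = 0.0141), the topoisomerase Top1 (-0.46 ± 0.12, adjusted p = 0.0197) and the uracil glycosylase Smug1 (-0.27 ± 0.09, adjusted p = 0.039) fell and did not pass with the block. Mismatch repair had 2 of 13 genes that fell, beside the same 5.31%, the MutL and MutS homologues Mlh3 (-0.57 ± 0.14, adjusted p = 0.0131) and Msh3 (-0.40 ± 0.12, adjusted p = 0.0309), again without a call under the block. Among 19 genes of double-strand break repair and checkpoints Xrcc6, the Ku70 end-binding protein, fell by 0.52 ± 0.16 (adjusted p = 0.0397, 0.418 with the block) and H2ax rose, a share near the 9.23% of all genes that passed. None of these 19 fell without any one of HAMSB replicates 1 to 5 or HAW replicates 1, 2, 3 and 5, while 2 or 3 fell without HAMSB replicates 6 or 7 or HAW replicates 4 or 6, 5 without HAMSB replicate 9 and 7 without HAW replicate 8. Of all genes 218 to 375, 546 to 687, 774 and 1196 fell in these fits. In mismatch repair 1 fell without any one of HAMSB replicates 1, 2, 4 and 5 or HAW replicates 1, 3 and 5, beside 218 to 375 of all genes. In base excision repair 2 fell without HAMSB replicate 5 or HAW replicates 3 or 5, beside 218 to 249 of all genes. Smug1 was chosen after its values were seen.

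In several other lists 1 or 2 members passed, mostly at or below the 9.23% of all genes that did, and these are given as single genes. Erap1, which trims peptides for MHC class I, measured 7.85, 8.25 and 8.81 in HAMSB and 8.75, 8.86 and 9.08 in HAW, and fell by 0.58 ± 0.12 (adjusted p = 0.00521, 0.0236 with the style block). It was the one of 15 tested genes of MHC class I presentation that passed. Slc20a1, a sodium-phosphate cotransporter counted with calcium and vitamin D genes, fell by 0.74 ± 0.19 (adjusted p = 0.0147, 0.0364 with the block), and Slc8a1, the sodium-calcium exchanger of the same list, fell by 0.25 ± 0.08 (adjusted p = 0.044, 0.344 with the block). The other 8 of these 10 genes did not pass. Insig1, which retains the sterol sensor in the endoplasmic reticulum, fell by 0.63 ± 0.16 (adjusted p = 0.0147) as the only one of 21 genes of cholesterol synthesis and uptake. Mdm2, the ubiquitin ligase of p53 (-0.41 ± 0.10, adjusted p = 0.0153), and the survival factor Mcl1 (-0.39 ± 0.12, adjusted p = 0.0337) fell among 22 genes of apoptosis. A second probe set of Mcl1, with a mean of 6.96 over all arrays, gave 0.096 and did not pass. Klf6, a transcription factor, fell by 0.41 ± 0.10 as the one of 18 immediate early genes that passed (adjusted p = 0.0147), and Clock, a core transcription factor of the circadian clock, fell by 0.53 ± 0.16 (adjusted p = 0.0316). Insig1, Mdm2, Mcl1, Klf6 and Clock did not pass with the block, and the difference of Clock was 0.01 in the style 1 arrays.

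The largest fall was that of Car3, a carbonic anhydrase abundant in fat and muscle, and it came with genes of adipocytes. Car3 measured 4.65, 7.26 and 9.60 in HAMSB and 7.51, 9.34 and 10.53 in HAW, a wide overlap, and fell by 2.24 ± 0.69, a level 4.72-fold higher in HAW (adjusted p = 0.0368). Of 13 tested adipocyte genes 2 fell, beside 5.31% of all genes, the lipase Lpl (-1.26 ± 0.39, adjusted p = 0.0371) and the hormone leptin, Lep (-0.88 ± 0.26, adjusted p = 0.0314). The list's mean level ran from 6.15 to 7.35 in HAMSB and from 6.54 to 7.72 in HAW, and its median difference was -0.33. Adiponectin, Adipoq, secreted by adipocytes, differed by -1.38 ± 0.47 (adjusted p = 0.0525), the fatty acid binding protein Fabp4 by -0.56 ± 0.38 and the lipid droplet protein Plin1 by -0.26 ± 0.18, none of which passed. With the style block Car3 (-2.49, adjusted p = 0.104), Lpl and Lep did not pass, while adipsin, Cfd, with a difference of -0.33 ± 0.22 over all arrays, did (-0.83, adjusted p = 0.0278). Fabp4, Plin1 and Cfd were chosen after their values were seen. None of the 13 fell without HAMSB replicates 2, 3 or 4 or HAW replicates 1 or 3, and 1 without HAMSB replicate 6. Of all genes 230 to 375 fell in the former fits and 615 in the latter. Whether the amount of fat in the samples played a part was not tested.

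The remaining genes of the 10 largest rises and 10 largest falls had no shared list. Ccdc107 measured 9.21, 9.53 and 10.08 in HAMSB and 7.85, 8.37 and 9.50 in HAW and rose by 1.09 ± 0.24 (adjusted p = 0.00933, 0.183 with the style block). Gchfr, which restrains the synthesis of tetrahydrobiopterin, rose by 0.76 ± 0.19 (adjusted p = 0.0143, 0.228 with the block). Dlgap5l2 fell by 1.63 ± 0.52 (adjusted p = 0.04, 0.143 with the block). Its 2 other probe sets gave -1.61 and -0.76, and neither passed in the limma fit of all probe sets (adjusted p = 0.0542 and 0.129). The latter had a mean of 3.765 over all arrays, under the low-signal floor of 4.75. Yes1, a kinase of the Src family, fell by 0.92 ± 0.25 (adjusted p = 0.0192, 0.187 with the block). Med14, a subunit of the Mediator complex, fell by 1.05 ± 0.27 (adjusted p = 0.0167, 0.0273 with the block), but its HAMSB mean of 4.73 was under the low-signal floor of 4.75.

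**Figure D2:**
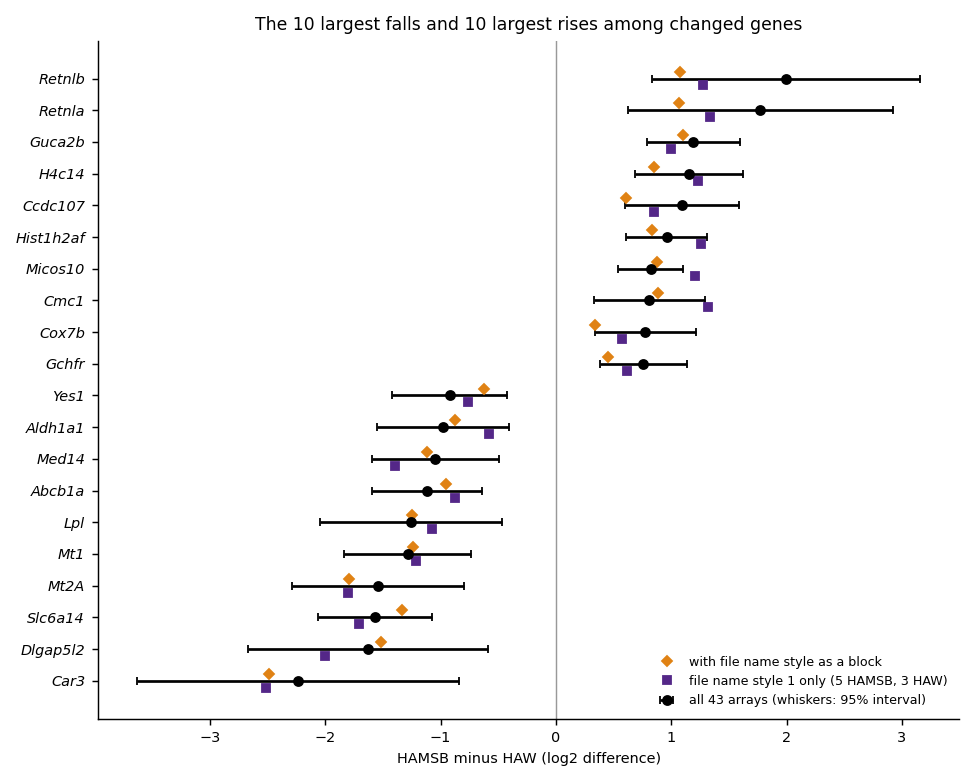
HAMSB minus HAW difference (log2) of the 10 largest falls and 10 largest rises among the genes that passed, over all 43 arrays with 95% intervals (black), with file name style as a block (orange) and in the style 1 arrays alone (purple). The signs are the same in the 3 fits for all 20 genes, and the difference of Retnlb goes from 1.99 to 1.08 with the block.

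Genes of butyrate uptake and use were measured as well. None of 13 tested carriers and receptors of short-chain fatty acids passed, beside 9.23% of all genes, with a median of 0.11. In so short a list few calls would be looked for at that share. The butyrate and lactate carrier Slc16a1 measured 9.93, 10.30 and 10.47 in HAMSB and 9.61, 10.44 and 10.72 in HAW, a difference of -0.13 with a 95% interval of 0.29 to either side (adjusted p = 0.593). Its relative Slc16a3 differed by 0.32 ± 0.15 (adjusted p = 0.164) and the sodium-coupled carrier Slc5a8 by -0.27 ± 0.19 (adjusted p = 0.38). The receptors Ffar2, Ffar3 and Hcar2, which sense short-chain fatty acids or butyrate, differed by 0.07, 0.27 and 0.28 with adjusted p from 0.152 to 0.698. Slc5a8 and Ffar2 were chosen after their values were seen. None of 26 genes of fatty acid oxidation and ketogenesis passed, beside the same 9.23%, with a median of 0.04. The fatty acid transporter Cd36 had the largest difference there (-0.59 ± 0.22, adjusted p = 0.0807).

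The lists of cell type markers held few calls, beside the 9.23% of all genes. No gene passed among 22 tested for absorptive colonocytes, 11 for enteroendocrine cells, 18 for crypt stem cells, 20 for T and NK cells, 18 for smooth muscle or 16 for enteric neurons and glia. Chga, a granule protein of enteroendocrine cells, differed by 0.21 ± 0.10 (adjusted p = 0.143), and Jchain, which joins IgA in plasma cells, by 0.18 ± 0.25 (adjusted p = 0.677). None of 12 B cell and germinal centre genes passed. Their mean level, which varies with lymphoid tissue in the sample, ran from 5.65 to 7.93 in HAMSB and from 5.67 to 8.67 in HAW with medians of 5.82 in both. Of 24 macrophage and dendritic cell genes Tyrobp, an adaptor of activating receptors (0.45 ± 0.11, adjusted p = 0.0134), and the transcription factor Batf3 (0.29 ± 0.09, adjusted p = 0.0393) rose and the lipopolysaccharide receptor Cd14 fell (-0.56 ± 0.16, adjusted p = 0.0308), none of them with a call under the style block. In 1 direction each, 1 of 10 plasma cell, 1 of 18 goblet cell, 1 of 23 fibroblast and 2 of 17 endothelial genes rose, and 1 of 10 mast cell genes fell. No gene passed among 13 of MHC class II, 16 of the interferon response or 18 cytokines and chemokines.

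**Figure D3:**
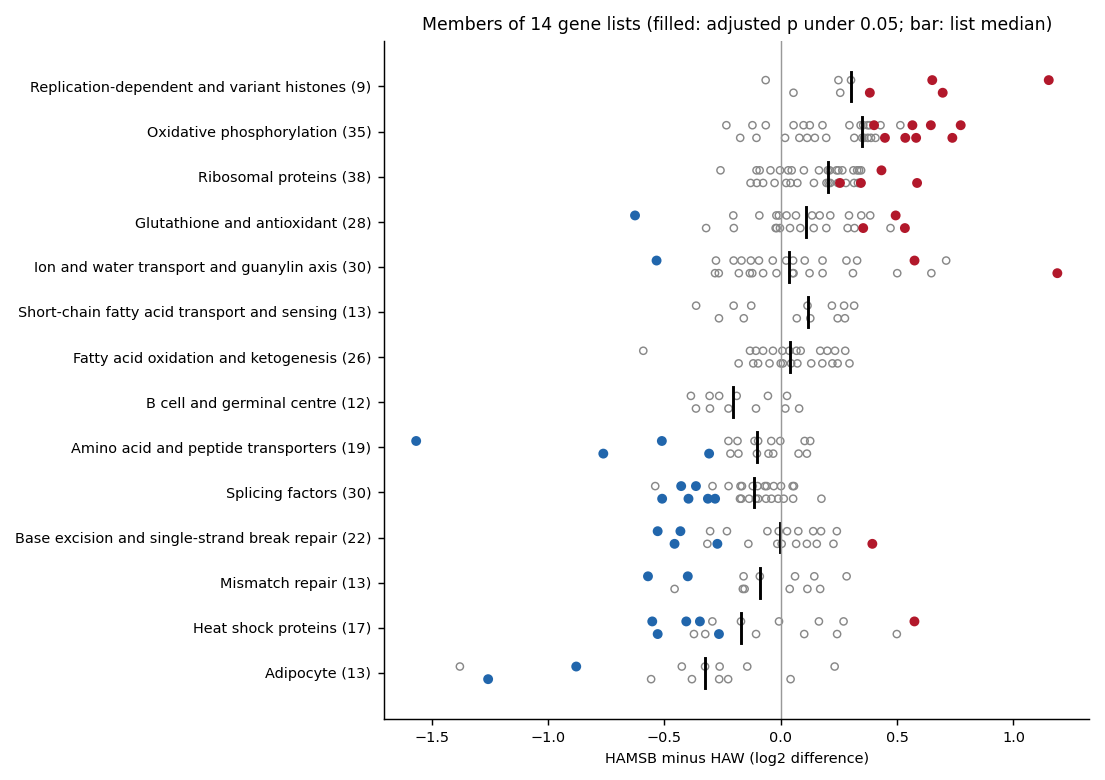
HAMSB minus HAW difference (log2) of each tested member of 14 gene lists, with the number of members in brackets; filled points passed (red higher, blue lower), open points did not, and bars give the list medians. Passing members lie on 1 side for oxidative phosphorylation (8 higher), histones (4 higher) and splicing factors (6 lower), while 5 heat shock genes are lower and 1 is higher.

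The low-amylose pair of the same grains, LAMS minus LAW, shares no array with HAMSB and HAW. There limma called none of 10934 genes (0%), with 192 at an unadjusted p under 0.05 beside 3009 in HAMSB minus HAW. Of the 1009 genes 782 had the same sign in both pairs without the style block and 408 with it. These genes were chosen in HAMSB minus HAW, and the same-sign share over all tested genes was not counted. Over all genes the 2 differences correlated at 0.29 without the block and at -0.09 with it, a description over genes, which are not independent replicates. The median difference of the 428 higher genes was 0.37 in HAMSB minus HAW and 0.07 in LAMS minus LAW, and that of the 581 lower genes was -0.45 and -0.06. The difference of the 2 differences was tested itself, and no gene passed over all arrays (0%, with 877 at an unadjusted p under 0.05), while 19 (0.174%) passed with the style block.

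Eif2s2, the beta subunit of the factor that brings the initiator tRNA to the ribosome, had the smallest p. It differed by -0.59 in HAMSB minus HAW and by 0.41 in LAMS minus LAW, a difference of differences of -0.99 ± 0.20 (adjusted p = 0.0542, 0.0142 with the block). Nifk, a nucleolar protein that binds Ki-67, had -0.68 ± 0.14 (adjusted p = 0.0542, 0.0214 with the block). Fbxl5, the iron-sensing ligase subunit that degrades iron regulatory protein, had -0.94 ± 0.22 and the clock gene Per3 0.79 ± 0.19, both with adjusted p = 0.229 over all arrays and passing with the block. Retnlb differed by 1.99 in HAMSB minus HAW and by -1.80 in LAMS minus LAW, a difference of 3.79 ± 0.88 (adjusted p = 0.229, 0.127 with the block). For Slc6a14 the LAMS minus LAW difference was -0.06 and the difference of differences -1.51 ± 0.37 (adjusted p = 0.248, 0.0214 with the block). Guca2b had -0.07 and 1.26 ± 0.30 (adjusted p = 0.229, 0.0643 with the block).

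**Figure D4:**
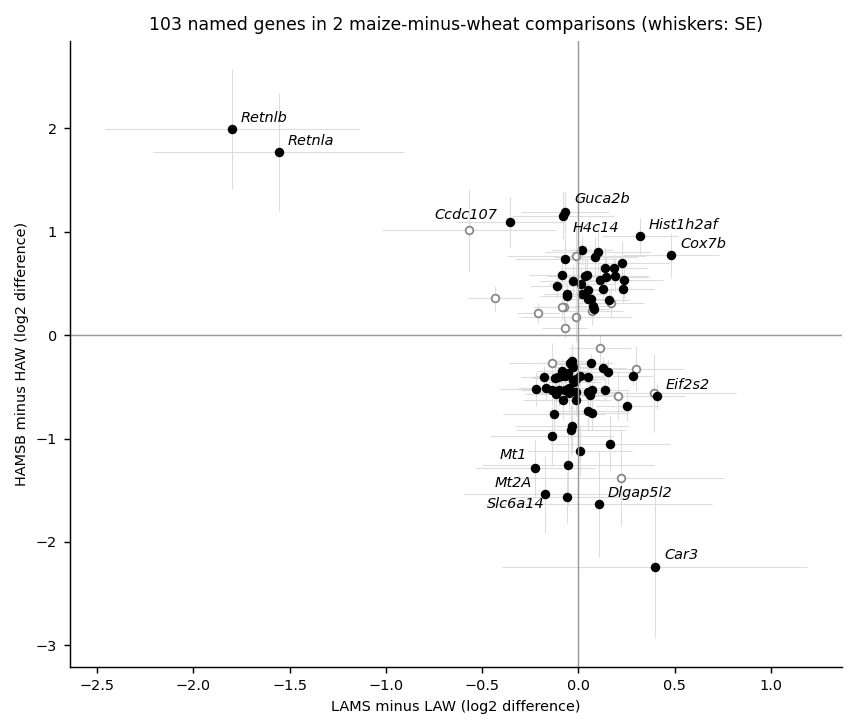
HAMSB minus HAW difference (log2, vertical) against LAMS minus LAW difference (log2, horizontal) of 103 of the genes named in the text with whiskers of 1 SE; filled points passed in HAMSB minus HAW and open points did not. Guca2b and Slc6a14 lie near 0 on the horizontal axis (-0.07 and -0.06), and Retnlb is at 1.99 and -1.80.

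Among the 6 diet means, HAMSB was the highest in 369 of the 428 genes that rose and HAW the lowest in 119. HAMSB was the lowest in 479 of the 581 genes that fell and HAW the highest in 98. These genes were called from the same HAMSB and HAW values, so the ranks are no separate test of which diet moved. Ranks over all tested genes were not counted. Set against LAMS, limma called 741 genes for HAMSB (6.78%) and 0 for HAW, where 108 had an unadjusted p under 0.05. Set against CON it called 92 for HAMSB (0.841%) and 0 for HAW, where 1073 had an unadjusted p under 0.05. These comparisons share the arrays of both diets with the one above, and they were fitted without the style block. LAMS and HAW hold styles 1 and 3, CON styles 2 and 3, and HAMSB styles 1 and 2. HAMS holds style 1 alone, and HAMS minus HAW gave 1458 calls (13.3%). Diet and style cannot be fully told apart here, and the part of style in these counts was not tested. Guca2b differed from LAMS by 1.16 in HAMSB (adjusted p = 0.00474) and by -0.03 in HAW, and Slc6a14 by -1.37 (adjusted p = 0.00474) and 0.20. HAMS, the maize starch without the ester, lay 0.99 below HAMSB for Guca2b (adjusted p = 0.00188) and 0.78 above it for Slc6a14 (adjusted p = 0.0269).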

How the data were processed

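Distal colon RNA of 43 rats was measured on Affymetrix arrays, 1 per animal; animals are separate by the numbers in the array file names of the labels. The authors deposited log2 values. RMA is the tool in the submitters' processing notes; its version is not given in the sources used here. The label HAM was read as HAMS. Of 29214 probe sets 15310 had 1 symbol, 323 several and 13581 none in the platform annotation. The probe set of highest mean over all arrays stood for each of 14506 symbols, and 10934 genes with a median at or above the 25th percentile of probe sets with a symbol (4.75) were tested with limma 3.58.1 in R 4.3.3 (lmFit, eBayes, 6 diet means, Benjamini-Hochberg adjustment, threshold 0.05). Precision is limited by how many arrays a diet has. The script was tested on simulated data. No pair of arrays correlated above 0.9932.

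The 46 gene lists, of which 859 distinct genes were tested, and the comparison itself were chosen with earlier results of these data known. Genes were named by a rule: the 10 largest rises and falls that passed, up to 4 genes of smallest p in each list, a few fixed genes and the 5 of smallest p in the difference of differences. It took 198 genes, of which only some are named; others are said to be chosen after their values were seen. Probe sets of near-identical genes (histones, ribosomal proteins, Hspa8, metallothioneins, resistin-like molecules) may share sequence. Promoters came from RefSeq (GRCr8), and all 9 genes looked up were found. Alternatives changed the filter, prior, array weights, centring, samples, blocks and covariates. Replicate numbers did not pair the arrays.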

Additional observations from a re-analysis of the deposited data

Results flagged for a closer look

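In 16 of 300 sets of arrays (5.33%), each the values of 1 gene, list or array measure in 1 diet, the lowest or highest array stood far from the rest by Dixon's criterion, which chance passes in about 1 of 20 sets. HAW replicate 8, the array of narrowest spread (interquartile range 1.82), accounted for 9 of them. On this array Hist1h2af measured 6.2450, Atp5mk 6.61, Slc16a1 9.61, Slc30a1 6.50 and Slc5a8 9.16. Its mean level was 7.70 for fatty acid oxidation and ketogenesis genes, 6.42 for xenobiotic metabolism and efflux, and 7.37 for histone deacetylases and acetyltransferases. HAW replicate 5 stood apart for Fbxl5 (8.46) and for the mean level of MHC class I presentation (8.97). In HAMSB, replicate 5 stood apart for Mcl1 (9.74), replicate 8 for Cd36 (6.98), replicate 3 for the mean macrophage and dendritic cell level (6.78), and replicate 9 for the mean levels of glutathione and antioxidant genes (7.82) and of smooth muscle genes (9.35). Their part in the differences was not tested beyond leaving out each array.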

How the results depend on the processing

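Of the alternatives run, the count of 1009 genes between HAMSB and HAW moved by more than 1.5 times with array weights (3338), the file name style block (214), style and animal number range blocks (144), the lymphoid level as a covariate (1826), the style block with the lymphoid level (626) and the style 1 arrays alone (332). Without HAW replicate 8, chosen after seeing the data, it was 146 with the style block and 622 in the style 1 arrays. It ran from 357 without HAMSB replicate 5 to 1754 without HAW replicate 8. Of the genes called over all arrays 42.4% were higher, against 53.5% over all probe sets, 61.4% with array spread as a covariate, 56.7% with the style block and lymphoid level, and 74.1% in style 1. Without HAW replicate 8 31.8% were higher over all arrays, 261 of 622 in style 1 and 18.5% with the style block. LAMS minus LAW had 0 calls in every alternative run. The difference of differences, with 0 calls, had 2 with the stricter filter, 560 with array weights, 2 with centred arrays, 19 with the style block, 20 with style and range blocks, 2 with the replicate block, 1 with the lymphoid level, 184 with the style block and lymphoid level, and 0 to 2 when 1 array was left out. The difference in array spread went from -0.0570 to 0.0507 in style 1, and from -0.1005 to -0.0380 when 1 array was left out.

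With the replicate block 1095 genes passed; same-numbered arrays correlated between -0.422 and 0.218 in their deviations from the diet means, so the numbers do not pair them. Of the 103 genes in the text 62 lost their call with the style block and 2 gained one. One turned its direction: Clock, at 0.0083 in the style 1 arrays. The cause was not tested. Signal near background limits Med14 and other dim genes. Many genes moved with measures of the arrays when diet was already in the model. Of 10934 tested, 4666 followed file name style, 5022 array spread and 5879 the lymphoid level.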
